A study of Mus musculus with 12 samples.

Results

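The genes described here are 37 genes of fatty acid oxidation and targets of PPAR-alpha, the nuclear receptor through which liver cells respond to fatty acids. They were chosen by symbol, and each symbol was matched to a row of the count table through the Ensembl identifiers of the GENCODE mouse annotation. The rule named the genes themselves and set no threshold on a measured value. All 37 were found among the 55414 rows of the table, and all 37 were among the 13857 genes that passed the filter on low counts. By role, 4 belonged to the carnitine shuttle, 11 to the mitochondrial beta-oxidation spiral, 3 to the electron transfer flavoprotein system, 7 to peroxisomal oxidation, 2 to ketone body metabolism and 4 to acyl-CoA and fatty acid handling. A further 3 were lipid droplet proteins and 3 were other PPAR-alpha targets.

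Bulk RNAseq of total liver was made from 12 female C57BL/6J mice, 3 per group, which carried no transgene and were between 8 and 12 weeks old. Mice were injected i.p. with NaCl solution, the vehicle, or with 300 mg/kg FeSO4, a model of acute iron overload. At 6 h they received PBS or 10 mg/kg dexamethasone (DEX), a synthetic glucocorticoid, and livers were taken 2 h later, which is 8 h after the first injection. The groups are named NaCl/PBS, NaCl/DEX, FeSO4/PBS and FeSO4/DEX, every mouse received both injections, and mice are numbered as in the sample titles. Food was freely available, and food intake after the injections is not given in the sources used here.

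Long-chain fatty acids enter mitochondria as carnitine esters through CPT1A, the carnitine carrier and CPT2, and are shortened there by a spiral of dehydrogenases, hydratases and thiolases whose electrons pass through the electron transfer flavoprotein. Very long chains are first shortened in peroxisomes, and hepatocytes turn the resulting acetyl-CoA into ketone bodies during fasting. PPAR-alpha pairs with RXR on DNA, is activated by fatty acids, and is known in liver for its control of many of these enzymes and of proteins that store and release lipid.

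Libraries held between 16335651 and 23827340 counts and between 17493 and 18579 detected genes. Replicates differed by far more than counting noise, and FeSO4/PBS mouse 1 stood apart most, with a chi-square per gene of 89.5 and 71.4 against the other mice of its group, where other pairs lay between 18.3 and 37. Hepatocyte markers were abundant in every library, and the sum over the 7 of 8 listed markers that were found was 2077000 to 2456000 normalized counts in NaCl/PBS mice and 2665000 to 3065000 in FeSO4/PBS mice, with 4 of 7 called higher. The 7 adipocyte markers summed to 412 to 493 in NaCl/PBS and 517 to 617 in FeSO4/PBS mice. Adipoq, Lep, Retn, Cfd and Plin1 had group means under 5 normalized counts in every group, and of the other 2, Fabp4 rose (LFC 2.29) and Lipe fell (LFC -1.87) after FeSO4. Neutrophil markers summed to 116 to 277 in NaCl/PBS mice and 685 to 848 in FeSO4/PBS mice, and Kupffer cell markers to 5344 to 6494 and 3056 to 3561, and the part of these cells in the results below was not tested. In total liver RNA, fewer cells of a type and less RNA per cell cannot be told apart.

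PPAR-alpha with RXR binds a direct repeat with a spacer of a single base, and the glucocorticoid receptor binds an inverted repeat. The 300 bases before the annotated start of each gene were searched on both strands, with up to 2 mismatches allowed, for AGGTCANAGGTCA (the direct repeat) and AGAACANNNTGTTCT (the inverted repeat). The direct repeat was found in 5 of 37 members (13.5%), namely Acot2, Echs1, Fabp1, Plin2 and Vnn1, and in 458 of 13818 promoters of the tested genes (3.31%). The inverted repeat was found in 0 of 37 members and in 205 of 13818 promoters (1.48%). None of these matches was exact in the members, and the Fabp1 match, with 1 mismatch, lay 13 to 1 bases before the start. The following sequences show the members that carry the direct repeat and moved, and Fabp1 as the most highly expressed member. They are read 5' to 3' along the gene from GRCm39, and capitals mark the match to the direct repeat.
Acot2: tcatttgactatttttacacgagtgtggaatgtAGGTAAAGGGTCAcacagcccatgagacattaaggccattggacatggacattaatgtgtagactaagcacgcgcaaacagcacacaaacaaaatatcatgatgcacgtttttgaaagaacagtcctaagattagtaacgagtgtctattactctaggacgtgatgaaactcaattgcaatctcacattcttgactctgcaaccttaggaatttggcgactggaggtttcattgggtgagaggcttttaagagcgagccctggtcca
Plin2: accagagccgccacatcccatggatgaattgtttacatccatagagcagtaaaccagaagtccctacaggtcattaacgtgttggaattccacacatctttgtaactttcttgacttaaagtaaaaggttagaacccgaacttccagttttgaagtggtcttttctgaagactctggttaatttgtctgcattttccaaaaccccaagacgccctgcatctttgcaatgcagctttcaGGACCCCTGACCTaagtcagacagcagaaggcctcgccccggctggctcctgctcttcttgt
Fabp1: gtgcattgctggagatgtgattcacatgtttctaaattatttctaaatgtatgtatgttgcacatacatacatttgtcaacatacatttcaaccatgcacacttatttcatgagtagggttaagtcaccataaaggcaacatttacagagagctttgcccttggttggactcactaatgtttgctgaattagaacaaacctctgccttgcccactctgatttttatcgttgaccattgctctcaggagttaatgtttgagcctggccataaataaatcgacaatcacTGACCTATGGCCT
Vnn1: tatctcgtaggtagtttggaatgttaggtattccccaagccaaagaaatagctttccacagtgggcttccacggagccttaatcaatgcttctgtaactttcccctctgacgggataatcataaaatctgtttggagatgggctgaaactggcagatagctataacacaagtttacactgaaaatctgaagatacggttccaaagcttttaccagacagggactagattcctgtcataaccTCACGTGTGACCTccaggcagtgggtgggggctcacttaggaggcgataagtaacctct

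The windows are chr12:84034128-84034427 (plus strand) for Acot2, chr4:86588460-86588759 (minus strand) for Plin2, chr6:71176509-71176808 (plus strand) for Fabp1 and chr10:23770286-23770585 (plus strand) for Vnn1. In Acot2 the match began 267 bases before the start, in Plin2 62 bases and in Vnn1 59 bases. Among all genes that rose after FeSO4, the direct repeat was found in 126 of 3764 promoters (3.35%), which is close to its share in all tested promoters. A match describes these letters only, and their absence from a window says nothing about binding elsewhere.

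Levels between genes were compared as counts divided by the effective library size and by the exon length in kilobases (the RPKM scale). Values on this scale are not the normalized counts given elsewhere, which are not divided by length and are scaled to the mean effective library size. For Fabp1 in NaCl/PBS mice, the mean was 44450 as a normalized count and 3329 on the RPKM scale. The length was the union of the exons of all annotated transcripts of a gene, so that the order of genes depends on the annotation as well. In NaCl/PBS mice Fabp1, which carries fatty acids through the cytosol, was the highest member at 3329 ± 398 (SD, n = 3), followed by the peroxisomal acyl-CoA synthetase Slc27a2 at 265 ± 23.1. Ehhadh (98.1 ± 20.9), Acaa1b (96.2 ± 10.6) and Acaa2 (92.5 ± 8.26) came next and lay within their spread of each other. At the low end stood Acot2 (1.495 ± 0.355), Pdk4 (1.44 ± 0.472) and Cidec (0.192 ± 0.191), and of these Acot2 and Pdk4 lay within their spread of each other. On this scale the mean of Pdk4 went from rank 36 of 37 in NaCl/PBS mice to rank 5 in FeSO4/PBS mice, that of Plin5 from rank 31 to rank 11 and that of Plin2 from rank 18 to rank 4. The Pdk4 mean in FeSO4/PBS mice (128 ± 105) rested on mice 2 and 3, with mouse 1 far below them (515 against 14230 and 14040 normalized counts). Angptl4 went from rank 27 to rank 14, Cidec from rank 37 to rank 25 and Bdh1 from rank 9 to rank 21, while Fabp1 and Slc27a2 were at ranks 1 and 2 in all 4 groups.

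In mice that received FeSO4 and PBS, the members that stood higher than in NaCl/PBS mice were mostly lipid droplet, acyl-CoA and peroxisomal genes, while the core mitochondrial enzymes showed small differences. Of the 37 members, 12 were called higher and 2 lower, where a call is a Benjamini-Hochberg FDR of 0.05 or less in edgeR's quasi-likelihood test across all tested genes. Over all tested genes 27.2% were called higher and 27.3% lower, so that the share of members called higher (12 of 37) was near the background and the share called lower (2 of 37) was below it. The median LFC (log2 fold change) was 0.17 over the members and -0.015 over all tested genes, and the median size of the LFC was 0.26 over the members and 0.58 over all tested genes. Scaling by library size alone moved the median LFC of all genes from -0.015 to -0.34 and the split of all calls from 3770 higher and 3783 lower to 2285 higher and 5829 lower, and with it the members to 7 higher and 11 lower. Lost as higher were Acadvl, Eci2, Pex11a, Acot1 and Acsl1, and called lower besides Bdh1 and Vnn1 were Acadm, Acads, Hadh, Echs1, Eci1, Etfa, Hsd17b4, Acaa1a and Slc27a2, so that the direction of small LFCs hung on the scaling. LFCs below are from TMM scaling, and the counts of each role class are to be read against the 27.2% higher and 27.3% lower of all tested genes.

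**Figure D1:**
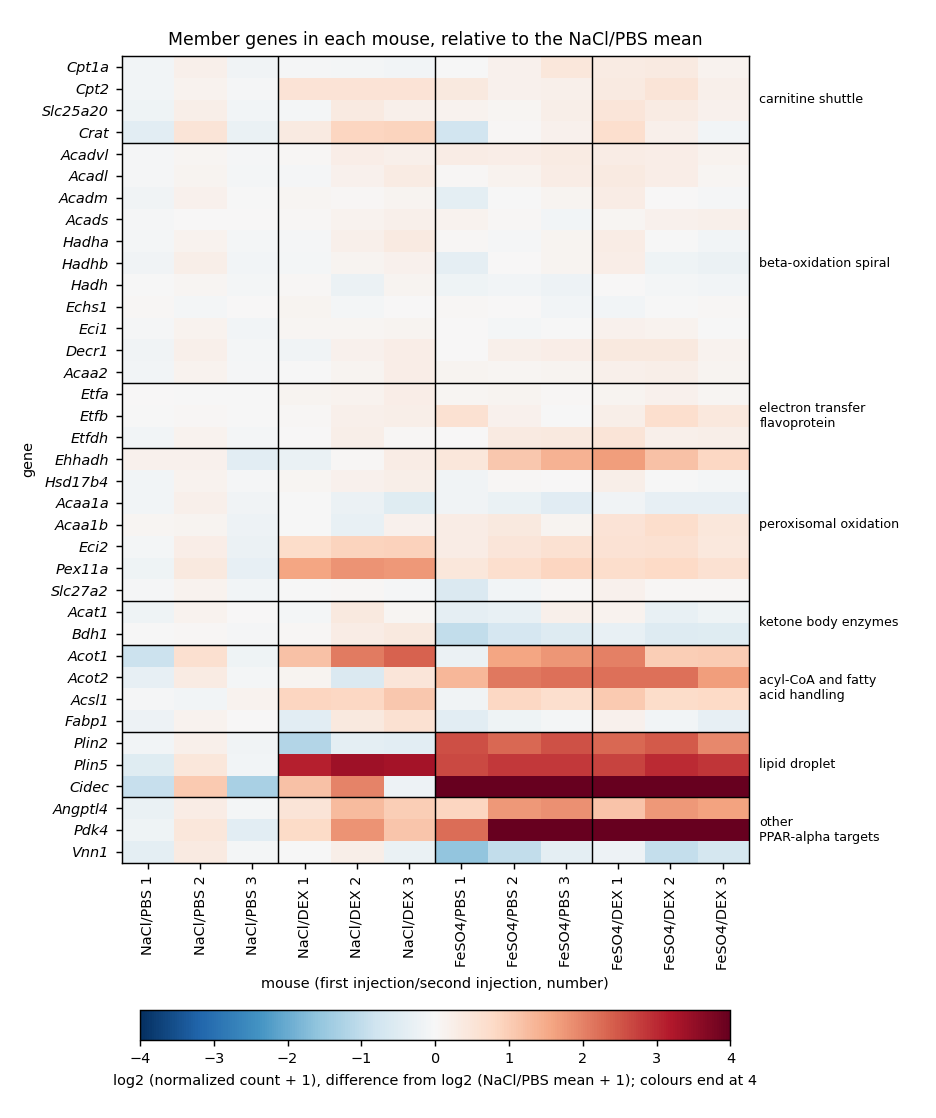
Heat map of the 37 members (rows, grouped by role) in the 12 mice (columns); colour is log2 of the normalized count plus 1, minus log2 of the NaCl/PBS mean plus 1. Red fills the FeSO4 columns for Cidec, Plin2, Plin5, Acot2 and Pdk4, with Pdk4 paler in FeSO4/PBS mouse 1, whereas the rows of the beta-oxidation spiral are pale throughout.

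**Figure D2:**
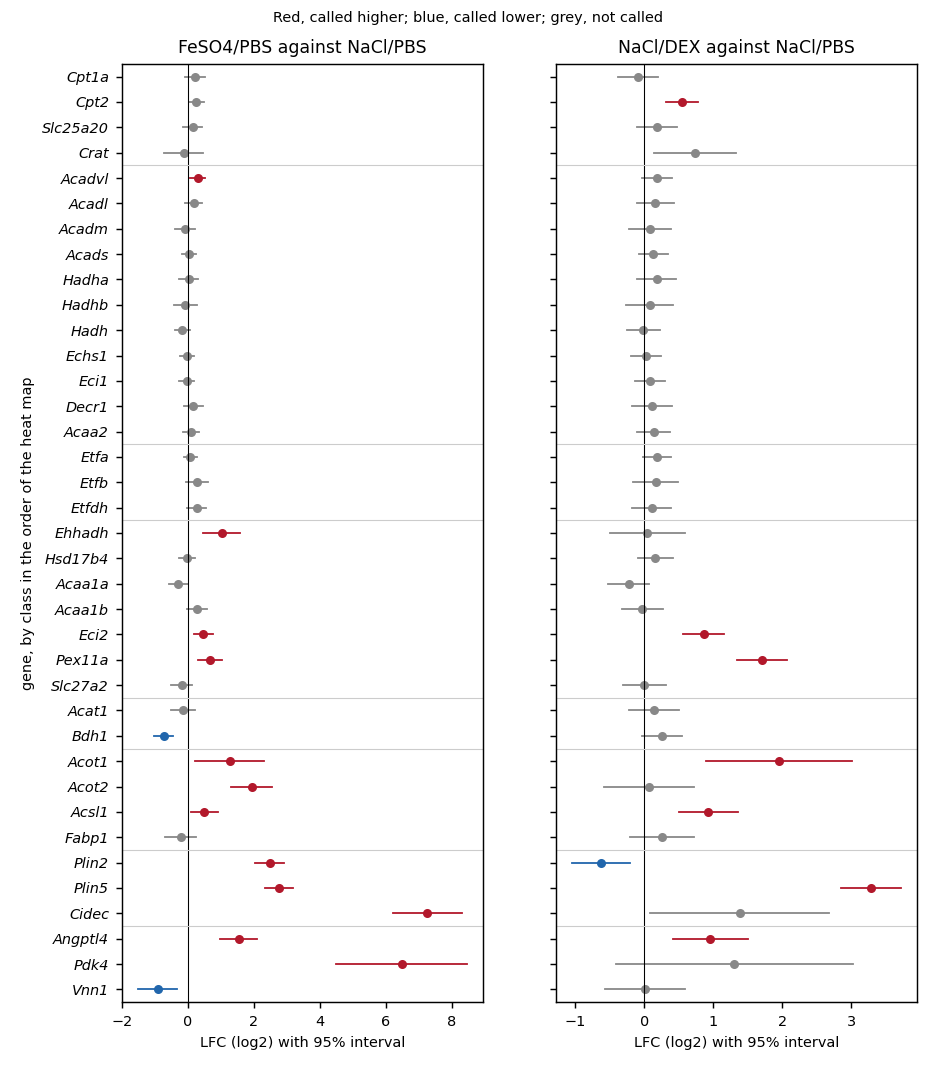
LFC (points, log2 scale) with 95% interval (bars) for each member in FeSO4/PBS against NaCl/PBS (left) and NaCl/DEX against NaCl/PBS (right), in the order of the heat map; the 2 panels share the NaCl/PBS mice and have different axis ranges. Red points are called higher and blue points lower; 12 red and 2 blue points stand in the left panel and 7 red and 1 blue point in the right panel, and with scaling by library size alone the left panel would hold 7 higher and 11 lower.

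Entry into mitochondria came first in the pathway, and 0 of its 4 members was called after FeSO4 by edgeR with TMM scaling, with 1 at an unadjusted p under 0.05 (Cpt2). Cpt2 was called in edgeR with DESeq2 size factors (FDR = 0.041), in the DESeq2 Wald test (FDR = 0.025) and without NaCl/PBS mouse 2 (FDR = 0.031). Cpt1a, the rate-limiting carnitine palmitoyltransferase of the outer membrane (ENSMUSG00000024900, chr19:3371853-3437996, plus strand), had 8775, 10820 and 8591 normalized counts in NaCl/PBS mice 1 to 3 and 9339, 10520 and 12940 in FeSO4/PBS mice. These ranges overlapped, and the LFC was 0.22 (95% interval -0.071 to 0.51, edgeR FDR = 0.19). Cpt2, the inner-membrane transferase, had an LFC of 0.26 (FDR = 0.056), the carnitine carrier Slc25a20 of 0.15 (FDR = 0.38) and the carnitine acetyltransferase Crat of -0.12 (FDR = 0.73). The Crat interval, from -0.72 to 0.47, was the widest of the class, and its 3 FeSO4/PBS values ran from 391 to 747.

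The mitochondrial spiral held 11 enzymes, of which 1 was called, and their LFCs ran from -0.16 to 0.30 after FeSO4, with 95% intervals that reached no further than -0.41 and 0.51. Acadvl, the very long-chain acyl-CoA dehydrogenase, had 5761, 6315 and 5677 normalized counts in NaCl/PBS mice and 7252, 7176 and 7357 in FeSO4/PBS mice. All 3 FeSO4/PBS values were above all 3 controls, and the LFC was 0.30 (SE 0.102, edgeR FDR = 0.025). That call was lost without NaCl/PBS mouse 1 (FDR = 0.08), NaCl/PBS mouse 3 (FDR = 0.092) or FeSO4/PBS mouse 3 (FDR = 0.053), and with library size alone the LFC of Acadvl was -0.023.

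Acadm, the medium-chain acyl-CoA dehydrogenase, had 5031, 6245 and 5493 normalized counts in NaCl/PBS mice and 4225, 5492 and 5979 in FeSO4/PBS mice, which overlapped (LFC -0.095, 95% interval -0.40 to 0.21). Hadha, the alpha subunit of the trifunctional protein, had 5927, 6992 and 6022 against 6503, 6078 and 6753, with an LFC of 0.030 (interval -0.26 to 0.32). Acaa2, the thiolase that closes the spiral, had 11020, 13040 and 11490 against 12710, 12490 and 12670, with an LFC of 0.091 (interval -0.15 to 0.33). Groups overlapped for all 3 of these enzymes. The other 7 members of the spiral were not called, and their LFCs were 0.17 for the long-chain dehydrogenase Acadl, 0.041 for the short-chain dehydrogenase Acads, -0.070 for the trifunctional beta subunit Hadhb, -0.16 for the hydroxyacyl-CoA dehydrogenase Hadh, -0.010 for the hydratase Echs1, -0.035 for the isomerase Eci1 and 0.17 for the dienoyl-CoA reductase Decr1. Hadha and Hadhb overlap at their starts on opposite strands of chromosome 5, and 5.27% of the 100-base windows of Hadhb also occur elsewhere, mostly in Hadhb-ps.

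None of the 3 genes of the electron transfer flavoprotein was called after FeSO4 (0 at an unadjusted p under 0.05). The LFC was 0.080 for the alpha subunit Etfa (FDR = 0.49), 0.28 for the beta subunit Etfb (FDR = 0.13) and 0.27 for the dehydrogenase Etfdh (FDR = 0.098). Of the 100-base windows of Etfb, 14.8% also occur in Etfbl. Etfb was called without FeSO4/PBS mouse 3 (LFC 0.41, FDR = 0.037) and Etfdh without FeSO4/PBS mouse 1 (LFC 0.38, FDR = 0.023). Together with the spiral, these 14 genes had a median LFC of 0.061 and a median size of 0.093, against 0.58 over all tested genes. Under library size alone the LFCs of Acads (-0.28) and Etfa (-0.24) turned negative and passed the FDR, so that no direction is given for them.

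Of the 7 peroxisomal genes, 3 rose after FeSO4 and 0 fell, where 27.2% of all tested genes were called higher and 27.3% lower. Ehhadh, the bifunctional hydratase and dehydrogenase and a classical PPAR-alpha target, had 6716, 6814 and 4541 normalized counts in NaCl/PBS mice and 8190, 12700 and 15830 in FeSO4/PBS mice. Every FeSO4/PBS value exceeded every control, although they spanned a wide range, and the LFC was 1.02 (SE 0.257, edgeR FDR = 0.004), or 2.03-fold. Pex11a, which drives peroxisome division (ENSMUSG00000030545, chr7:79385705-79392879, minus strand), had 952, 1404 and 852 against 1470, 1719 and 1923. These did not overlap, and the LFC was 0.67 (SE 0.165, FDR = 0.0034), with the call lost under library size alone (FDR = 0.082).

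The isomerase Eci2, listed here with the peroxisomal genes, had an LFC of 0.47 (FDR = 0.0096). That call was lost without NaCl/PBS mouse 3 (LFC 0.36, FDR = 0.056) and with library size alone (FDR = 0.36). Acaa1b, a peroxisomal thiolase, had 9267, 9334 and 7628 normalized counts against 10740, 11580 and 9358 after FeSO4. The Acaa1b groups did not overlap, but its LFC of 0.27 was not called (95% interval -0.026 to 0.57, edgeR FDR = 0.11). Its paralogue Acaa1a had an LFC of -0.28 (FDR = 0.10), and 6.31% of the 100-base windows of Acaa1b also occur in Acaa1a. Hsd17b4, the D-bifunctional protein, had an LFC of -0.029 (FDR = 0.85) and the acyl-CoA synthetase Slc27a2 of -0.18 (FDR = 0.30).

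Both ketone body genes in the list are mitochondrial enzymes, and 1 of the 2 fell after FeSO4. Bdh1, which interconverts acetoacetate and beta-hydroxybutyrate (ENSMUSG00000046598, chr16:31241087-31277725, plus strand), had 4921, 5106 and 4749 normalized counts in NaCl/PBS mice and 2463, 3086 and 3413 in FeSO4/PBS mice. Every FeSO4/PBS mouse was below every control, and Bdh1 fell by 0.72 on the log2 scale (SE 0.135, edgeR FDR = 4.8e-04), with an FDR of 0.0024 at most when a mouse was left out. Acat1, which makes and cleaves acetoacetyl-CoA, had 6453, 7932 and 7265 against 5570, 5883 and 8221. These overlapped, with an LFC of -0.14 (95% interval -0.50 to 0.23, FDR = 0.52).

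Among the 4 genes of acyl-CoA and fatty acid handling, 3 were called higher, and 1 of these calls held in every alternative. Acot2, a mitochondrial thioesterase that releases free fatty acids from acyl-CoA (ENSMUSG00000021226, chr12:84034428-84040647, plus strand), had 56.8, 89.8 and 66.9 normalized counts in NaCl/PBS mice and 178, 308 and 333 in FeSO4/PBS mice. The ranges were far apart, and the LFC was 1.94 (SE 0.289, edgeR FDR = 7.3e-05), or 3.85-fold. Leaving out any of these mice gave Acot2 LFCs of 1.78 to 2.18.

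Acot1, the cytosolic paralogue of Acot2 and a neighbour on chromosome 12, had 175, 494 and 279 normalized counts in NaCl/PBS mice and 267, 949 and 1070 in FeSO4/PBS mice. FeSO4/PBS mouse 1 lay within the control range, and the LFC was 1.27 (SE 0.487, edgeR FDR = 0.039). The call was lost without NaCl/PBS mouse 1 (FDR = 0.14) or 3 (FDR = 0.10), without FeSO4/PBS mouse 2 (FDR = 0.11) or 3 (FDR = 0.15), and in the DESeq2 Wald test (FDR = 0.057). Of the 100-base windows of Acot1, 11.4% also occur in Acot2, and of those of Acot2 17.5% occur in Acot1, so that reads from these windows could not be assigned to either gene.

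Acsl1, the main long-chain acyl-CoA synthetase of liver, had 10120, 9775 and 11690 normalized counts in NaCl/PBS mice and 9573, 18600 and 16620 in FeSO4/PBS mice. Again FeSO4/PBS mouse 1 was below the control range, and the LFC of 0.50 (SE 0.196, edgeR FDR = 0.042) lost its call without NaCl/PBS mouse 1 (FDR = 0.10) or 2 (FDR = 0.11) and without FeSO4/PBS mouse 2 (LFC 0.32, FDR = 0.20) or 3 (FDR = 0.12). It was also lost with library size alone (FDR = 0.44), in a fit of only these 6 libraries (FDR = 0.087) and with a minimum of 10 counts in every library (FDR = 0.052). Fabp1 had 38800, 49330 and 45220 against 33460, 39510 and 42070, with an LFC of -0.21 (95% interval -0.68 to 0.25). The Fabp1 groups overlapped, and it was not called.

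All 3 lipid droplet genes rose after FeSO4, and they were among the members with the largest differences. Cidec, which promotes fusion and growth of lipid droplets (ENSMUSG00000030278, chr6:113400691-113412721, minus strand), had 5.75, 25.2 and 4.23 normalized counts in NaCl/PBS mice and 1831, 1441 and 1894 in FeSO4/PBS mice. Cidec went from near the detection limit, with 8, 27 and 5 reads, to at least 1441 normalized counts in each mouse, and the LFC was 7.26 (SE 0.484, edgeR FDR = 7.4e-08), or 153-fold (95% interval on the log2 scale 6.22 to 8.30). Without NaCl/PBS mouse 2, the control with the most reads, the LFC of Cidec was 8.38.

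Plin2, the coat protein of most hepatocyte lipid droplets (ENSMUSG00000028494, chr4:86565912-86588459, minus strand), had 4195, 5212 and 4049 normalized counts in NaCl/PBS mice and 26680, 22150 and 26120 in FeSO4/PBS mice. The LFC of Plin2 was 2.48 (SE 0.206, edgeR FDR = 4.6e-07), or 5.57-fold. Plin5, which tethers droplets to mitochondria (ENSMUSG00000011305, chr17:56418446-56424610, minus strand), had 331, 642 and 431 against 2893, 3330 and 3341. For both perilipins the ranges were far apart, and the LFC of Plin5 was 2.77 (SE 0.198, FDR = 1.2e-07), or 6.83-fold. Plin2 and Plin5 were called in each alternative setting and without each mouse of the 2 groups, and so was Cidec wherever it was tested, which it was not with a minimum of 10 counts in every library. Of the 7 adipocyte markers only 2 passed the filter and were tested, and of these Fabp4 was called higher and Lipe lower. Among the others Adipoq had at most 1.02 normalized counts in any mouse and Lep 0. Plin1, the perilipin of white adipocytes, had 10.1, 2.03 and 1.27 in FeSO4/PBS mice and 0 in NaCl/PBS mice.

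**Figure D3:**
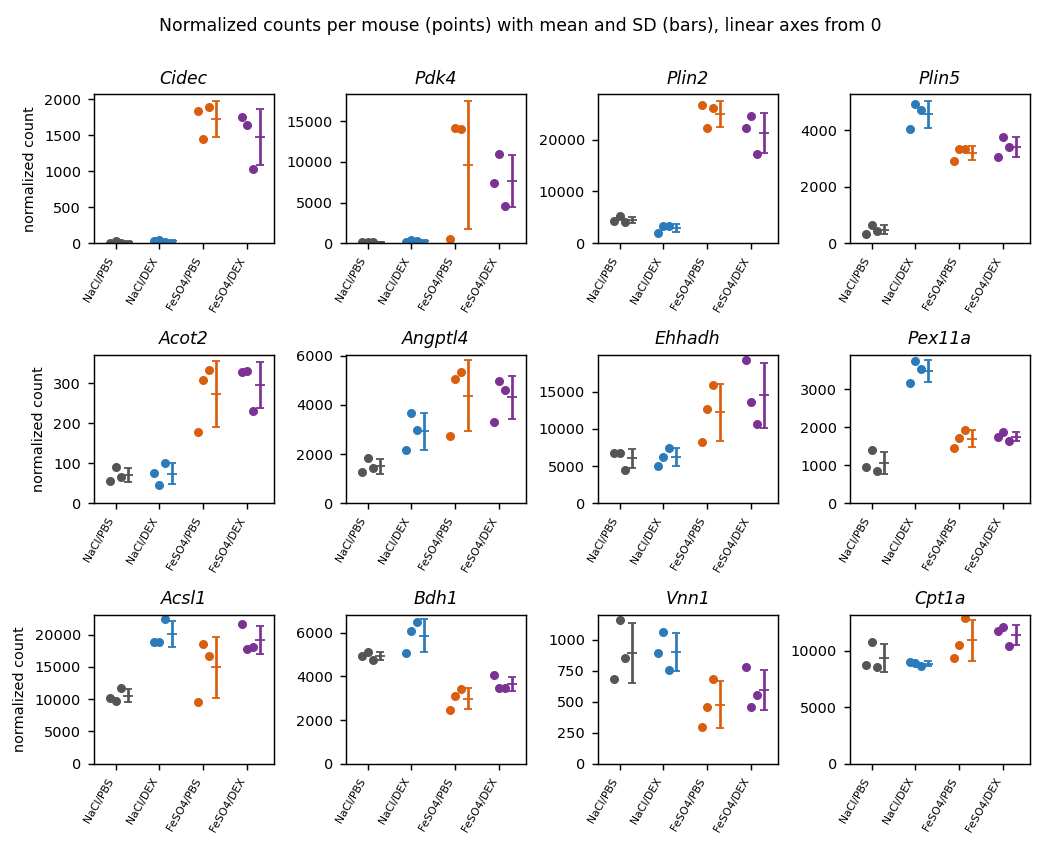
Normalized counts (linear axes from 0) of 12 members in each mouse (points) with the group mean and SD (bars, n = 3), by group along the horizontal axis. Cidec, Plin2 and Acot2 are high in both FeSO4 groups and low in both NaCl groups, Plin5 and Pex11a are high after DEX in NaCl mice as well, and FeSO4/PBS mouse 1 lies apart from mice 2 and 3 for Pdk4 and Acsl1.

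Of the other PPAR-alpha targets, 2 rose and 1 fell. Pdk4, the kinase that turns off pyruvate dehydrogenase and so spares glucose (ENSMUSG00000019577, chr6:5483097-5496339, minus strand), had 95.7, 149 and 81.3 normalized counts in NaCl/PBS mice and 515, 14230 and 14040 in FeSO4/PBS mice. FeSO4/PBS mouse 1 was above every control but far below mice 2 and 3, so that the group mean of 9597 had an SD of 7866. The LFC of Pdk4 was 6.47 (SE 0.922, 95% interval 4.49 to 8.45, edgeR FDR = 5.2e-05), and it ran from 6.07 to 7.04 when a mouse was left out.

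Angptl4, a secreted inhibitor of lipoprotein lipase, had 1264, 1839 and 1423 normalized counts in NaCl/PBS mice and 2738, 5070 and 5337 in FeSO4/PBS mice. Its ranges did not overlap, and the LFC was 1.54 (SE 0.256, edgeR FDR = 1.9e-04), or 2.90-fold. Vnn1, the pantetheinase, had 682, 1159 and 852 against 297, 455 and 682. Vnn1 fell by 0.91 on the log2 scale (SE 0.275, FDR = 0.012), but FeSO4/PBS mouse 3 reached the lowest control, and the call was lost without NaCl/PBS mouse 2 (LFC -0.68, FDR = 0.063). FeSO4/PBS mouse 1 was the lowest of its group in 22 of the 37 members and in 9 of the 12 called higher, and NaCl/PBS mouse 2 was the highest of its group in 33 of 37. Without FeSO4/PBS mouse 1, 13 members were called higher and 2 lower, and without NaCl/PBS mouse 2, 12 were higher and 1 lower. Over all genes these fits called 3676 higher and 3707 lower of 14264, and 3501 higher and 3459 lower of 14277.

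DEX in mice that had received NaCl changed fewer members, and none of the called members was in the spiral. In NaCl/DEX against NaCl/PBS mice, 7 members were called higher and 1 lower, where 6.50% of all tested genes were called higher and 7.15% lower, so the share of members higher (7 of 37) was above the background and the share lower (1 of 37) below it. With library size alone the split over all genes went from 901 higher and 991 lower to 618 higher and 1776 lower, and the median LFC of all genes from -0.025 to -0.18. The median LFC of the members was 0.16. Both this comparison and the one on FeSO4 use the same 3 NaCl/PBS mice, so their values are set side by side here without any measure of likeness between them.

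Plin5 was the member with the largest DEX response. Against 331, 642 and 431 normalized counts in NaCl/PBS mice it had 4022, 4927 and 4715 in NaCl/DEX mice, with no overlap, and the LFC was 3.29 (SE 0.202, edgeR FDR = 2.4e-07), or 9.76-fold. Pex11a had 3171, 3739 and 3526 in NaCl/DEX mice, all above the controls, with an LFC of 1.70 (SE 0.168, FDR = 1.7e-05). Acot1 had 706, 1323 and 1625 in NaCl/DEX mice, also above the controls, with an LFC of 1.95 (SE 0.491, FDR = 0.016). The Acot1 call was lost without NaCl/PBS mouse 1 (FDR = 0.076), NaCl/PBS mouse 3 (FDR = 0.07) or NaCl/DEX mouse 3 (FDR = 0.067). Acot2, its paralogue, had 76.2, 47.0 and 99.7 in NaCl/DEX mice, overlapping the controls, with an LFC of 0.066 (95% interval -0.58 to 0.72).

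Acsl1 had 18920, 18850 and 22410 normalized counts in NaCl/DEX mice, and all 3 lay above the NaCl/PBS range (LFC 0.93, SE 0.197, edgeR FDR = 0.0058). Eci2 rose by an LFC of 0.86 (FDR = 7.3e-04) and Cpt2 by 0.54 (FDR = 0.0041), with no overlap between groups for either. Angptl4 had 2163, 3657 and 2963 in NaCl/DEX mice and an LFC of 0.96 (SE 0.253, FDR = 0.021). That call was lost without NaCl/PBS mouse 1 (FDR = 0.092) or 3 (FDR = 0.079) or without NaCl/DEX mouse 2 (FDR = 0.093) or 3 (FDR = 0.06).

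Plin2 was the only member called lower after DEX, with 1979, 3398 and 3344 normalized counts in NaCl/DEX mice, all below the NaCl/PBS values. Its LFC of -0.63 (SE 0.197) was at an edgeR FDR of 0.05. It was no longer called with DESeq2 size factors (FDR = 0.061), in a fit of only these 6 libraries (FDR = 0.056), or without any mouse of the 2 groups other than NaCl/DEX mouse 2 (FDR = 0.061 to 0.18, the highest without NaCl/PBS mouse 2). Within the lipid droplet class, DEX thus gave a rise in Plin5 and a decrease in Plin2 that rested on these choices. Cidec had an LFC of 1.38 that was not called (27.9, 48.9 and 10.1 normalized counts, edgeR FDR = 0.15). It was called without NaCl/PBS mouse 2 (LFC 2.52, FDR = 0.022) and with no filter on low counts (LFC 1.39, FDR = 3.7e-06).

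The remaining members were not called after DEX in NaCl mice. All 11 genes of the spiral were among them, with LFCs between -0.016 and 0.18 and 95% intervals within -0.27 and 0.46. Cpt1a had 9033, 8884 and 8619 normalized counts in NaCl/DEX mice (LFC -0.087, interval -0.38 to 0.20), and Pdk4 had 187, 377 and 237, which were above the controls but not called (LFC 1.31, interval -0.41 to 3.02, FDR = 0.33). In a fit of only these 6 libraries Pdk4 was called (FDR = 0.0096), as was Crat (FDR = 0.048), whose LFC was 0.73 (FDR = 0.10) and which was also called without NaCl/PBS mouse 2 (LFC 1.08, FDR = 0.021). With no filter on low counts Pdk4 (edgeR FDR = 1.7e-14) and Crat (FDR = 8.8e-06) were called too. Ehhadh had 5009, 6222 and 7393 (LFC 0.044, interval -0.50 to 0.59), and Bdh1 had 5056, 6098 and 6485 (LFC 0.26, FDR = 0.25). Fabp1 ran from 33030 to 67200 in NaCl/DEX mice, with an LFC of 0.25 (interval -0.22 to 0.71).

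After FeSO4, DEX gave no called member. In FeSO4/DEX against FeSO4/PBS mice, edgeR called 0 of 37 members, as it called 0% of all tested genes higher and 0% lower. At an unadjusted p under 0.05 stood 1 member, Bdh1 (LFC 0.30, edgeR FDR = 0.76), and 900 genes in all. The DESeq2 Wald test called 5 genes higher and 5 lower but 0 members, and with every gene kept whatever its counts, edgeR called 99 higher and 71 lower, again with 0 members. Member LFCs ran from -0.33 to 0.42. Plin5, with 2893, 3330 and 3341 normalized counts in FeSO4/PBS mice, had 3043, 3742 and 3390 in FeSO4/DEX mice (LFC 0.089, FDR = 0.95), and Pex11a had 1758, 1866 and 1644 against 1470, 1719 and 1923 (LFC 0.044, FDR = 0.97). The ranges overlapped for both, and the FeSO4/DEX values of Plin5 were below all NaCl/DEX values.

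The difference between the DEX responses, tested as an interaction over the 4 groups, was called for 3 members, all with a smaller response after FeSO4, where 2.99% of all tested genes had a called higher and 3.20% a called lower difference. With library size alone that split over all genes moved from 414 higher and 443 lower to 575 higher and 327 lower. Plin5 had a difference of -3.20 on the log2 scale (SE 0.268, edgeR FDR = 1.5e-05) and Pex11a of -1.66 (SE 0.233, FDR = 9.0e-04), and both were called without each mouse in turn. Eci2 had a difference of -0.79 (SE 0.192, FDR = 0.026), which was not called without NaCl/PBS mouse 1 (FDR = 0.07) or 3 (FDR = 0.07), NaCl/DEX mouse 2 (FDR = 0.057) or 3 (FDR = 0.066), FeSO4/PBS mouse 3 (FDR = 0.054) or FeSO4/DEX mouse 3 (FDR = 0.066), nor with library size alone (FDR = 0.06). For Acot1 (-1.79, 95% interval -3.24 to -0.33), Acsl1 (-0.57, interval -1.16 to 0.021) and Angptl4 (-0.98, interval -1.74 to -0.22) the difference was not called, and each of these was called without FeSO4/PBS mouse 1, with an FDR of 0.026, 0.012 and 0.016 in that order. Without that mouse 7 members had a called smaller response, Pdk4 (LFC difference -2.24, FDR = 0.0092) among them. Over all genes this fit called 628 of 14264 differences lower, where the fit with every mouse called 443 of 13857. The Cidec difference of -1.61 was called without NaCl/PBS mouse 2 (-2.75, FDR = 0.035) and with no filter on low counts (-1.63, FDR = 3.7e-06). With no filter the differences of Acot1 (edgeR FDR = 5.5e-16), Angptl4 (FDR = 3e-05) and Pdk4 (FDR = 1.6e-12) were called as well.

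**Figure D4:**
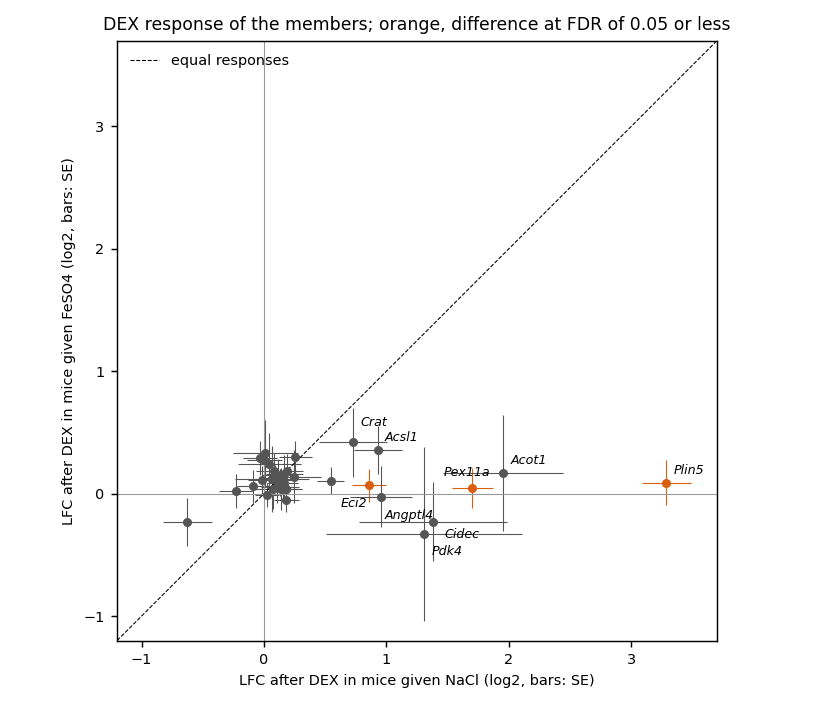
LFC after DEX in NaCl mice (horizontal axis) against LFC after DEX in FeSO4 mice (vertical axis) for the 37 members, with SE bars and a dashed line of equal responses; orange marks the 3 members whose difference was called. Plin5, at 3.29 against 0.089, Pex11a and Eci2 lie near 0 on the vertical axis, and the bars of Acot1, Cidec and Pdk4 are wide.

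In mice that also received DEX, FeSO4/DEX against NaCl/DEX, 7 members were called higher and 2 lower, where 22.4% of all tested genes were called higher and 20.9% lower. Both member shares were near or below this background, and with library size alone the split over all genes went from 3103 higher and 2902 lower to 2151 higher and 4146 lower. Cidec had 27.9, 48.9 and 10.1 normalized counts in NaCl/DEX mice and 1746, 1639 and 1025 in FeSO4/DEX mice (LFC 5.64, SE 0.435, edgeR FDR = 3.8e-07), and without NaCl/DEX mouse 2 its LFC was 6.28. Plin2 had 22180, 24560 and 17120 in FeSO4/DEX mice (LFC 2.87, FDR = 2.5e-07), and Pdk4 had 7447, 10950 and 4539 (LFC 4.84, FDR = 4.2e-04). None of these overlapped the NaCl/DEX values.

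Acot2 (LFC 2.00, edgeR FDR = 9.5e-05) and Ehhadh (LFC 1.22, FDR = 0.0017) were higher in FeSO4/DEX than in NaCl/DEX mice as well. The Acaa1b values of 12760, 14100 and 11980 in FeSO4/DEX mice were above the 8694, 7154 and 9817 of NaCl/DEX mice (LFC 0.60, SE 0.139, FDR = 0.0033). Cpt1a had 11750, 12070 and 10380 in FeSO4/DEX mice, above all NaCl/DEX mice, with an LFC of 0.37 (SE 0.135, FDR = 0.042), and that call was lost without any single mouse of the 2 groups (FDR = 0.059 to 0.17) and with library size alone (FDR = 0.36). Pex11a was lower, with 1758, 1866 and 1644 against 3171, 3739 and 3526 (LFC -0.99, FDR = 2.8e-04), and Bdh1 had 4050, 3465 and 3484, below all NaCl/DEX mice (LFC -0.68, FDR = 0.001). Plin5 was not called (LFC -0.43, FDR = 0.076), but was called lower with library size alone (FDR = 0.012), with no filter (FDR = 0.0084) and in a fit of only these 6 libraries (FDR = 0.012). Fabp1 was called lower without NaCl/DEX mouse 1 (LFC -0.57, FDR = 0.018), Vnn1 lower without FeSO4/DEX mouse 1 (LFC -0.84, FDR = 0.04) and Angptl4 higher without NaCl/DEX mouse 2 (LFC 0.74, FDR = 0.049).

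The mRNA of the receptor itself fell after FeSO4. Ppara, which encodes PPAR-alpha, had 2991, 3521 and 2777 normalized counts in NaCl/PBS mice and 712, 1873 and 1775 in FeSO4/PBS mice, with no overlap (LFC -1.09, SE 0.257, edgeR FDR = 0.0026). In FeSO4/DEX mice it had 1148, 1116 and 1413 against 3148, 3012 and 3043 in NaCl/DEX mice (LFC -1.32, FDR = 9.4e-04). Its partner Rxra had 8899, 10080 and 8927 in NaCl/PBS and 8340, 8579 and 9265 in FeSO4/PBS mice, and was not called (LFC -0.092, FDR = 0.46). The coactivators Ppargc1a (264, 220 and 308 against 99.8, 704 and 420) and Ppargc1b (150, 68.3 and 188 against 60.5, 397 and 259) were not called either. In both, FeSO4/PBS mouse 1 lay below every control while mice 2 and 3 lay above, with LFCs of 0.63 (FDR = 0.26) and 0.81 (FDR = 0.17). Without that mouse both were called higher, with LFCs of 1.10 (FDR = 0.0025) and 1.28 (FDR = 0.0038). Both were also called higher with no filter on low counts (edgeR FDR = 5.3e-04 and 1.1e-04). With library size alone Rxra was called lower (LFC -0.41, FDR = 0.0048).

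Lpin1, a phosphatidate phosphatase that also acts with PPAR-alpha as a coactivator, had 3575, 6313 and 4968 normalized counts in NaCl/PBS mice, 10300, 17400 and 12710 in FeSO4/PBS mice and 26470, 27870 and 27860 in NaCl/DEX mice. Its LFC was 1.44 after FeSO4 (edgeR FDR = 5.3e-05) and 2.47 after DEX (FDR = 5.8e-06), and the 3 ranges did not overlap. Creb3l3, a membrane-bound factor that acts with PPAR-alpha in fasting, had 4099, 5141 and 4032 against 9826, 10760 and 10100 after FeSO4 (LFC 1.21, FDR = 5.3e-06). Fgf21, a hormone gene under PPAR-alpha control, had 10.1, 41.1 and 12.7 against 433, 72.2 and 255 (LFC 3.61, FDR = 8.8e-04), and its LFC was 4.47 when NaCl/PBS mouse 2 was left out and 2.97 when FeSO4/PBS mouse 1 was. Creb3l3 and Fgf21 values of FeSO4/PBS mice were above all controls.

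The omega-hydroxylases Cyp4a10 and Cyp4a14, classical PPAR-alpha targets outside the 37, were not called after FeSO4. Cyp4a10 had 5743, 14360 and 7975 normalized counts in NaCl/PBS mice and 6687, 12550 and 12160 in FeSO4/PBS mice (LFC 0.16, edgeR FDR = 0.71). Cyp4a14 had 5103, 17530 and 8067 against 6009, 14370 and 18000 (LFC 0.32, FDR = 0.57). Both varied widely within each group and overlapped between groups, and NaCl/PBS mouse 2 had the highest control value of each. Windows shared with other genes made up 13.6% of Cyp4a10.

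Of 111 further genes of these pathways that passed the filter, 32 were called higher and 28 lower after FeSO4, with a median LFC of 0.027. These shares were near the 27.2% higher and 27.3% lower of all tested genes, against which the counts of each list are to be read. The ketone body genes other than the members held the transporters Slc16a6 (LFC 4.36, edgeR FDR = 4.8e-08), which exports ketone bodies, and Slc16a1 (LFC 2.69, FDR = 1.3e-07), which carries monocarboxylates, as 2 of 6 called higher, and Oxct1 (LFC -1.43, FDR = 3.7e-04), which starts ketone body use, as the 1 called lower. Slc16a6 had 106, 155 and 172 normalized counts in NaCl/PBS mice and 1700, 3692 and 3455 in FeSO4/PBS mice, so its groups were far apart. Of 14 other lipid droplet and lipolysis genes 7 were higher and 2 lower, from Hilpda (LFC 5.33, FDR = 2.9e-06), which inhibits lipolysis, to Lipe, the hormone-sensitive lipase (LFC -1.87).

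Among the peroxins, which build peroxisomes, 2 of 15 were higher and 8 lower, where all tested genes gave 27.2% and 27.3%, from Pex16 (LFC 0.78, edgeR FDR = 8.7e-05) to Pex10 (LFC -1.79, FDR = 0.0031), whereas the member Pex11a was higher. Of 17 other peroxisomal oxidation genes 1 was higher (Acox2, LFC 0.34) and 6 lower, with Abcd2, a transporter of very long-chain acyl-CoA, at -1.53 (FDR = 8.6e-04). Of 16 other mitochondrial oxidation genes 4 were higher and 5 lower, from Cpt1b, the muscle isoform, at 2.89 with at most 27.5 normalized counts in any FeSO4/PBS mouse, to Acad12 at -0.73. Of 22 regulators 9 were higher and 5 lower, with Fgf21 and Ppara at the ends. Omega-oxidation held 1 called gene of 6 (Cyp4a32, LFC 0.99, FDR = 0.044), and fatty acid uptake and activation 6 higher and 1 lower of 15, from Fabp4 (LFC 2.29, FDR = 2.8e-07), which is also on the adipocyte list, to Acsl3 (LFC -1.08, FDR = 0.007).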

How the data were processed

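Per the labels and the study's methods, the authors prepared stranded mRNA libraries from total liver RNA, used FastQC for read quality and STAR 2.7.10b for alignment (build mm39), and deposited raw read counts per Ensembl gene, without normalization. Which strand setting gave these counts is not given in the sources used here. From the deposited counts, edgeR 4.0.16 (R 4.3.3, limma 3.58.1) filtered low genes with filterByExpr, computed TMM factors and fitted 1 quasi-likelihood model with a mean for each of the 4 groups of 3 mice; the replicate number was not a term. Genes were called at a Benjamini-Hochberg FDR of 0.05 or less over 13857 genes, with no minimum LFC. LFCs used a prior count of 0.125, and normalized counts are TMM-scaled to the mean effective library size. Depth was 16335651 to 23827340 counts per library, and p-values rest on 3 mice per group.

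Values of every mouse were given for the called member with the largest rise and fall in each role class, for fixed members and regulators of interest, and for members with a called DEX response or difference over 1 on the log2 scale; other pathway genes were given as counts, with the largest changes named. The members, lists and this rule were chosen with earlier results of these data known. Alternatives were DESeq2 1.42.0, its size factors in edgeR, library size alone, no filter, at least 10 counts in every library, a replicate block, only the libraries of a comparison, an absolute LFC over 1, and each mouse left out. The model was tested on simulated data. Some genes and a sequence that this rule covers are not reported here. Sequences and exon lengths came from GRCm39 with GENCODE, with Python 3.11.15, numpy 2.4.6, pandas 2.3.3 and matplotlib 3.10.9. The marker Tf was not matched by symbol and is not used here.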

Additional observations from a re-analysis of the deposited data

Results flagged for a closer look

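The response to DEX differed between FeSO4 and NaCl mice, by an interaction term in edgeR, for 3 members and for Lpin1. The difference, the DEX response in FeSO4 mice minus that in NaCl mice on the log2 scale, was -3.197 for Plin5, -2.345 for Lpin1, -1.658 for Pex11a and -0.793 for Eci2. For Lpin1 the edgeR FDR was 3.5e-04, and its 12920, 14990 and 16140 normalized counts in FeSO4/DEX mice overlapped those of FeSO4/PBS mice. In all 4 genes FeSO4 alone had raised the level, by LFCs of 2.77, 1.44, 0.67 and 0.47 in the same order, and FeSO4/PBS and FeSO4/DEX means stayed below the NaCl/DEX mean.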

How the results depend on the processing

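Of the member values recomputed under the alternatives, 442 of 480 for FeSO4, 457 of 480 for DEX in NaCl mice, 480 of 480 for DEX in FeSO4 mice, 449 of 480 for FeSO4 in DEX mice and 647 of 665 for the interaction neither gained nor lost a call nor changed sign with a call. The LFC changed sign in 29, 34, 30, 35 and 61 of these values in the same order, which but for 3 were called under neither setting. With library size alone, the members after FeSO4 went from 12 to 7 higher and from 2 to 11 lower, and in DEX mice from 2 to 8 lower, and 13 of 37 LFCs after FeSO4 changed sign, of which Acadvl (-0.023), Acads (-0.28) and Etfa (-0.24) were called under one of the scalings; these shifts follow the move of the median of all genes that this scaling makes. With an absolute LFC over 1, 0 members were lower after FeSO4, 3 higher and 0 lower after DEX in NaCl mice, and 0 lower after FeSO4 in DEX mice, since the threshold is stricter. Over all 13857 genes that threshold gave 2040, 411, 473 and 1362 in the same order. The lower call after DEX in NaCl mice (Plin2) went from 1 to 0 with DESeq2 size factors, with the replicate block and with only the libraries of the comparison. Lower calls after FeSO4 in DEX mice were 6 with no filter and 5 with only the libraries of the comparison. Smaller DEX responses were 7 with no filter, and the cause was not tested. Over all genes these fits called 3025 of 25013, 3043 of 12993 and 776 of 25013 lower in the same order. Leaving out a mouse gave 1 to 2 members lower after FeSO4, 0 to 1 lower after DEX in NaCl mice, and 2 to 7 with a smaller DEX response, the 7 without FeSO4/PBS mouse 1. These fits tested 14150 to 14330 genes. Over all of them, the lower calls were 3329 to 3707, 578 to 722 and 308 to 628 in the same order. Without the filter, DEX in FeSO4 mice called 99 genes higher and 71 lower, with DESeq2 5 and 5, and with edgeR and the filter 0.

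The sample titles share only a replicate number between groups: deviations of same-numbered mice correlated at -0.092 to 0.129. With the replicate block, 11 members were higher and 2 lower after FeSO4, 7 higher and 0 lower after DEX in NaCl mice, 7 higher and 3 lower after FeSO4 in DEX mice, and 4 had a smaller DEX response. Over all 13857 genes the block gave 3613 and 3655, 846 and 908, and 2960 and 2732 in the same order, and 389 lower differences. It ended the calls of Acsl1 after FeSO4 (FDR = 0.056), Plin2 after DEX in NaCl mice (FDR = 0.058) and Cpt1a after FeSO4 in DEX mice (FDR = 0.059), and called Plin5 lower (FDR = 0.028) and Angptl4 higher (FDR = 0.0056) after FeSO4 in DEX mice and Angptl4 with a smaller DEX response (FDR = 0.015).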
